A study of Arabidopsis thaliana with 8 samples.

Results

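Transcripts of 10 Aux/IAA genes were followed in dark-grown Arabidopsis thaliana seedlings, out of 33518 genes counted. The genes were IAA1 (AT4G14560), IAA2 (AT3G23030), IAA3 (AT1G04240), IAA4 (AT5G43700), IAA5 (AT1G15580), IAA6 (AT1G52830), IAA7 (AT3G23050), IAA17 (AT1G04250), IAA19 (AT3G15540) and IAA29 (AT4G32280). They were taken by gene code from a family of 29 Aux/IAA genes and were not chosen by a threshold on any measured value. Earlier results of these data were known when they were chosen. All 10 were present in the count files, and 9 passed the filter on low counts and were tested. IAA5, with 0 to 5 counts in any library, did not pass it.

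RNA was sequenced from etiolated seedlings in the Col-0 background, grown for 5 days in the dark on MS medium with BRZ, which blocks the synthesis of brassinosteroid hormones. Each of 4 genotypes had 2 libraries. Next to wild-type Col-0 there was bzr1-1D, whose dominant allele keeps the brassinosteroid-responsive transcription factor BZR1 active. The pifq line is a mutant for 4 phytochrome-interacting factors (PIF1, PIF3, PIF4, PIF5), and in pifq;bzr1-1D all these alleles are combined. No group without BRZ and no group in light was analysed here, so every value holds for seedlings that make little brassinosteroid of their own. The pifq line lacks only these members of the PIF family, and bzr1-1D changes the BZR1 protein. The series addresses how BZR1 and PIF4 act together.

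Aux/IAA proteins are short-lived nuclear repressors. They bind auxin response factors (ARFs) at auxin-responsive genes and bring in corepressors of the TOPLESS family. Auxin joins an Aux/IAA protein to a TIR1/AFB receptor, the Aux/IAA protein is then degraded, and the ARF is released. Many Aux/IAA genes are themselves switched on by auxin within minutes, so they serve both as brakes and as readouts of the pathway. In etiolated seedlings, stabilising mutations in several of them change hypocotyl growth and the apical hook.

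The libraries held 16.1 to 34.4 M gene counts (M, mega). Levels are given as CPM, counts per M gene counts. The limit set by a gene without reads is 3 counts (95% confidence), or 0.0872 to 0.186 CPM depending on the library, for counting error only. Replicates differed by more than counting noise, with a chi-square per degree of freedom of 1.72 to 2.47 in the first 3 genotypes and 5.50 in pifq;bzr1-1D. Whether a genotype's libraries are separate cultures is not in the labels, and p-values here reflect no more than how these libraries vary, possibly for technical reasons alone. PORA, a marker of etiolated tissue, was high in every library (984 to 3328 CPM) but not equal between genotypes. Its mean was lowest in the combined line, at 999.8 CPM, and 1747 CPM in the pifq line. With the PIFs it was higher, at 2973 CPM for bzr1-1D and 3321 CPM for Col-0. Against Col-0, its log2 fold change was −0.86 in pifq and −1.60 in pifq;bzr1-1D. Whether this difference has a part in the Aux/IAA levels was not tested. PIF1, PIF3 and PIF5 were lower in all 4 libraries without the PIFs than in all 4 with them. PIF4 was higher there, at 24.95 to 46.99 against 13.09 to 15.14 CPM. These transcript levels do not test the bzr1-1D allele. In RNA of whole seedlings, fewer cells of a type and less RNA per cell cannot be told apart.

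Summed over the 10 genes, Aux/IAA transcripts were lowest where the PIFs were missing. The sum was 936 and 944 CPM in Col-0, against 1079 and 1042 in bzr1-1D, 516 and 499 CPM in pifq, and 586 and 570 CPM in pifq;bzr1-1D. None of these pairs overlapped. IAA2, IAA4 and IAA7 made up most of the sum, with means of 300, 212 and 265 CPM in Col-0, so it says little on the other genes. The sum over the 19 other Aux/IAA genes spanned a narrower range, from 906 CPM in a pifq;bzr1-1D library to 1196 CPM in a Col-0 library. It too was lower without the PIFs, at 906 to 948 CPM against 1077 to 1196 CPM with them.

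Per length of the transcript, IAA4, IAA2 and IAA7 had the highest mean levels of all 29 family members, at 154, 149 and 134 CPM per kb over the 4 genotypes. IAA17 followed with 47.7 and IAA3 with 38.2 CPM per kb. IAA1, IAA29 and IAA19 lay close together at 13.1, 11.5 and 10.8 CPM per kb. IAA6 had 0.712 and IAA5 0.113 CPM per kb, so both were near the limit of detection for most genotypes. Lengths are those of the longest TAIR10.1 transcript, a later annotation than the TAIR9 build of the counts, so nearby ranks are uncertain. In Col-0 alone the order among the 10 genes began with IAA2, IAA7 and IAA4, and IAA16, which is not among the 10, stood above IAA4 (162 against 157 CPM per kb).

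**Figure D1:**
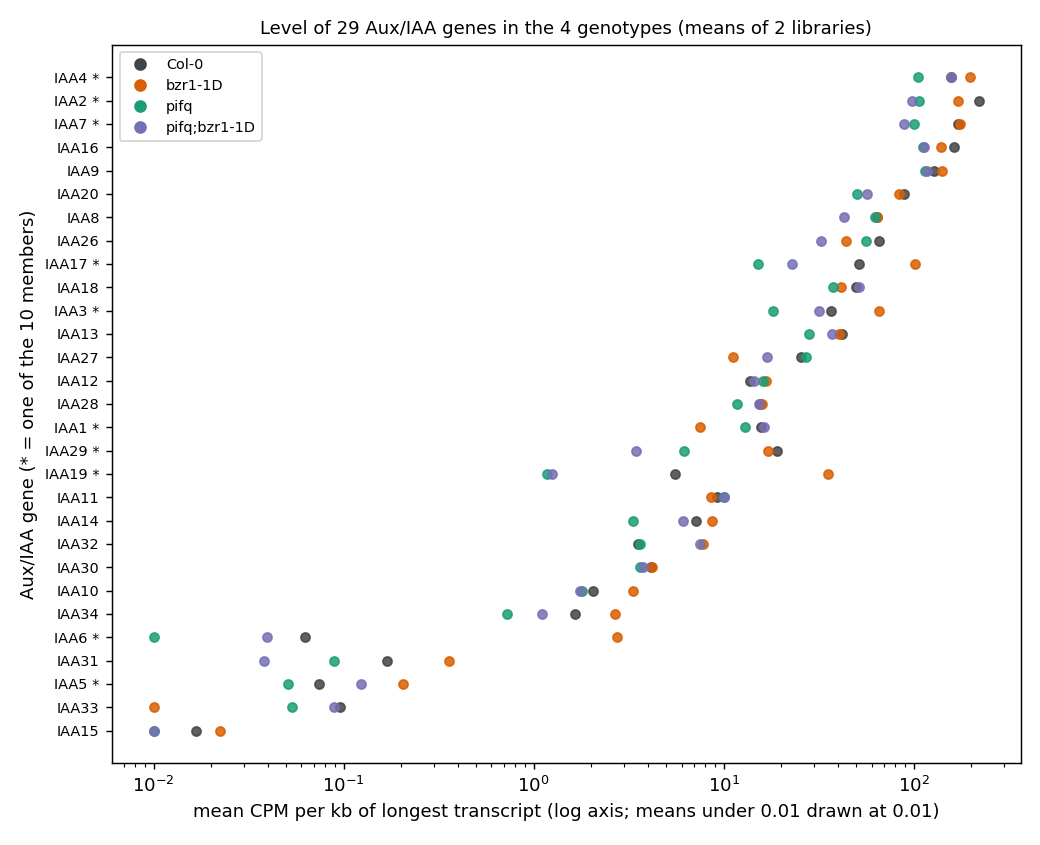
Mean CPM per kb of the longest transcript (log axis) for 29 Aux/IAA genes, with 1 point per genotype (mean of 2 libraries) and an asterisk on the 10 genes described here. IAA4, IAA2 and IAA7 stand at the top, and the points of IAA19 are spread far wider than those of IAA1 and IAA29 beside it.

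IAA19, a repressor linked to differential growth of the hypocotyl in tropic bending, was high in bzr1-1D and low without the PIFs. It had 5.96 and 5.26 CPM in Col-0, against 34.7 and 36.5 in bzr1-1D, 1.28 and 1.10 CPM in pifq, and 1.66 and 0.869 CPM in pifq;bzr1-1D. The bzr1-1D libraries lay above all others, Col-0 came next, and the ranges of pifq and pifq;bzr1-1D overlapped. The mean in bzr1-1D was 6.35 times that of Col-0 and 28.2 times that of pifq;bzr1-1D. The level without the PIFs rests on few reads, 33 and 27 counts in pifq and 49 and 14 counts in pifq;bzr1-1D.

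IAA6, identified through a mutant with a short hypocotyl, was detected well in bzr1-1D alone. There it had 2.07 and 2.63 CPM, from 53 and 64 counts. Col-0 had 2 and 1 counts, pifq 0 and 0, and pifq;bzr1-1D 2 and 0. From summed counts, bzr1-1D was 43.0 times Col-0 (exact 95% interval 14.3 to 211, counting error only) and 53.5 times pifq;bzr1-1D (14.5 to 447). Against pifq it was at least 39.4-fold higher, with the floor of 3 counts set over both pifq libraries. The gene passed the filter only through the bzr1-1D libraries, so it had to differ, and its fitted fold changes depend on the prior count. The 10 tested genes nearest to IAA6 on chromosome 1, in the gene order of TAIR10.1, had log2 fold changes of −7.56 to 0.999 in bzr1-1D against Col-0, with a median of 0.22.

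IAA5, another early auxin-induced gene, was barely detected. Its libraries had 4 and 0 counts in Col-0, against 5 and 3 in bzr1-1D, 1 and 1 in pifq, and 2 and 2 in pifq;bzr1-1D. The summed counts gave a ratio of bzr1-1D to Col-0 of 2.20 with an exact 95% interval of 0.590 to 9.995. No difference of this gene was detectable at this depth. Its code also overlaps AT1G15570 in TAIR10.1.

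IAA17 (AXR3) is a repressor whose stabilised form disturbs hypocotyl growth and root gravity responses. It had 67.1 and 68.9 CPM in Col-0, against 135 and 132 in bzr1-1D, 19.8 and 20.4 CPM in pifq, and 29.98 and 29.98 CPM in pifq;bzr1-1D. All 4 genotypes were separate, and the order was bzr1-1D, Col-0, pifq;bzr1-1D, pifq. The bzr1-1D allele went with a higher level both with and without the PIFs.

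IAA3 (SHY2) is known from mutants that grow short hypocotyls in the dark. Its levels were 51.4 and 47.8 CPM in Col-0, against 92.8 and 86.0 in bzr1-1D, 24.9 and 24.3 CPM in pifq, and 44.9 and 41.5 CPM in pifq;bzr1-1D. The order was that of IAA17, but here pifq;bzr1-1D came close to Col-0, without overlap in CPM over total gene counts. With TMM scaling in the main fit below, these 2 genotypes were not called different (log2 fold change −0.06 ± 0.05). IAA3 overlaps AT1G04230 in TAIR10.1, and the strand setting of the counting is not given in the sources used here.

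IAA4, an early auxin-induced member, had 214 and 211 CPM in Col-0, against 276 and 261 in bzr1-1D, 146 and 140 CPM in pifq, and 227 and 202 CPM in pifq;bzr1-1D. The bzr1-1D libraries were highest and the pifq libraries lowest. Col-0 fell within the range of pifq;bzr1-1D, so those neighbours were not separate in CPM over total gene counts.

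IAA2, whose promoter is widely used as an auxin reporter, was highest in Col-0. It had 301 and 299 CPM there, 235 and 232 CPM in bzr1-1D, 149 and 139 CPM in pifq, and 134 and 131 CPM in pifq;bzr1-1D. In CPM over total gene counts, none of the 4 genotypes overlapped, and both lines with bzr1-1D were below their counterparts without it. The step from pifq to pifq;bzr1-1D was small. With TMM scaling in the main fit below it was not called (log2 fold change −0.05 ± 0.04).

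IAA7 (AXR2), whose stabilised form gives dwarf plants with poor auxin responses, fell into a high and a low pair. Col-0 had 258 and 272 CPM and bzr1-1D 274 and 264 CPM, and these overlapped. The levels were 156 and 153 CPM in pifq and 129 and 144 CPM in pifq;bzr1-1D.

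IAA29, a member known to be induced by PIFs in shade and warmth, fell into the same pairs of genotypes. It had 22.9 and 25.2 CPM in Col-0, against 22.2 and 20.6 in bzr1-1D, 7.61 and 7.91 CPM in pifq, and 4.03 and 4.59 CPM in pifq;bzr1-1D. The lowest level was that of pifq;bzr1-1D, separate from pifq, and Col-0 and bzr1-1D did not overlap but lay close.

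IAA1 (AXR5), an auxin-induced repressor, went another way. It had 14.8 and 14.8 CPM in Col-0, against 7.42 and 6.79 in bzr1-1D, 11.3 and 13.2 CPM in pifq, and 15.5 and 15.5 CPM in pifq;bzr1-1D. Here bzr1-1D was the lowest genotype and pifq;bzr1-1D had the highest mean. That mean was only 1.05 times that of Col-0, and this difference was not stable under the alternatives given below.

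**Figure D2:**
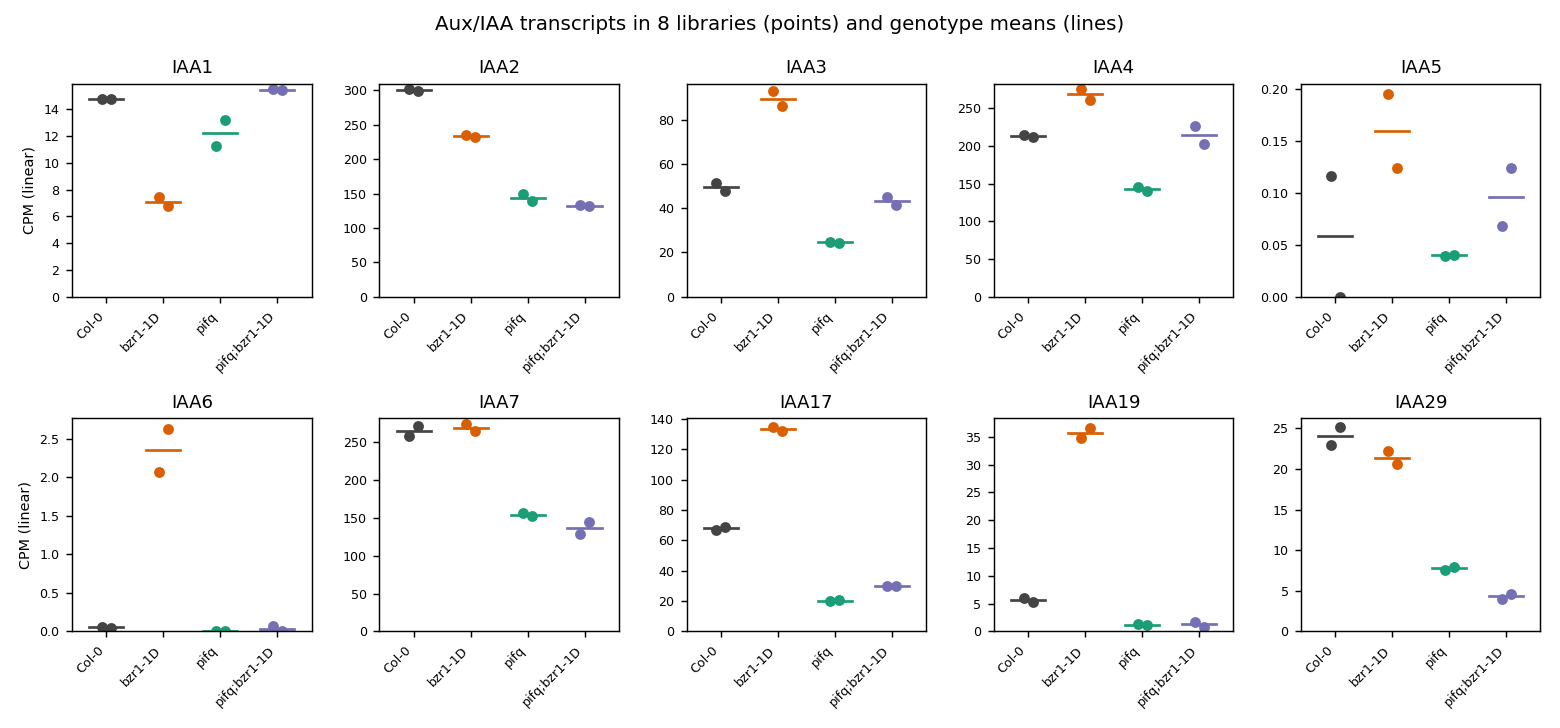
CPM of each of the 10 genes (linear axes starting at 0, a scale of its own for each gene) in the 4 genotypes, with 1 point per library and a line at the mean of 2 libraries. IAA19 and IAA6 are high in bzr1-1D only, IAA2, IAA7 and IAA29 are low in both genotypes without the PIFs, and IAA1 is lowest in bzr1-1D.

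With the PIFs present, bzr1-1D was compared with Col-0 for the effect of active BZR1. Of the 10 genes, 5 rose (IAA3, IAA4, IAA6, IAA17 and IAA19), 2 fell (IAA1 and IAA2), and IAA7 and IAA29 were not called. Without IAA6, which had to differ, 4 of the 8 other genes tested rose. Over all 21221 genes tested, 30.8% were called higher and 26.1% lower by edgeR's quasi-likelihood test at an adjusted p under 0.05. IAA19 had a log2 fold change of 2.67 ± 0.09 (SE, n = 2 per genotype, edgeR adjusted p = 6.69e-23), above the 95th percentile of all genes, 1.27. IAA17 rose by 1.00 ± 0.04 (9.78e-21), IAA3 by 0.87 ± 0.05 (7.43e-17) and IAA4 by 0.36 ± 0.04 (4.47e-09), each with its edgeR adjusted p in brackets. IAA1 had −1.03 ± 0.10 (3.48e-11) and IAA2 −0.34 ± 0.04 (6.03e-10), by the same edgeR test. The median over the 8 genes tested other than IAA6 was 0.20, and 0.36 with IAA6, against 0.02 over all genes. IAA7 had 0.05 ± 0.04 and IAA29 −0.13 ± 0.07, with an edgeR adjusted p of 0.109 for IAA29. IAA29 was called lower without Col-0 replicate 1 (0.0400), pifq;bzr1-1D replicate 1 (0.0438) or pifq;bzr1-1D replicate 2 (0.0438), within an edgeR and DESeq2 range of adjusted p of 0.0400 to 0.478 over its alternatives.

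The effect of losing the PIFs was read from pifq against Col-0 on the same medium. It shares the Col-0 libraries with the comparison of bzr1-1D. All members tested except IAA6 fell, 8 of 9, and none rose, against 30.5% of all genes called lower and 32.0% called higher. The largest falls were those of IAA19, with a log2 fold change of −2.19 ± 0.19 (SE, n = 2 per genotype, edgeR adjusted p = 2.70e-12), IAA17 with −1.69 ± 0.05 (4.79e-24) and IAA29 with −1.55 ± 0.08 (3.21e-17). These 3 lay below the 5th percentile of all genes, −1.15. IAA2 had −0.996 ± 0.04, IAA3 −0.96 ± 0.06, IAA7 −0.71 ± 0.04 and IAA4 −0.51 ± 0.04, with edgeR adjusted p of 2.73e-12 or less. The median over the 9 genes tested was −0.996, or −0.98 without IAA6, which is at or under 3 summed counts in both genotypes, against 0.01 over all genes. IAA1 changed least, by −0.21 ± 0.08 with an edgeR adjusted p of 0.0303. Its call was lost with DESeq2 (0.159) and in edgeR without Col-0 replicate 1 (0.0993), Col-0 replicate 2 (0.0725) or pifq replicate 1 (0.441), in a range of adjusted p of 0.00747 to 0.441. Its value was −0.10 without pifq replicate 1 and −0.33 without pifq replicate 2.

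To see active BZR1 in seedlings that lack the PIFs, pifq;bzr1-1D was set against pifq. Here 4 of the 9 genes tested rose and 2 fell, against 28.1% and 27.8% of all genes. IAA3 rose by a log2 fold change of 0.90 ± 0.06 (SE, n = 2 per genotype, edgeR adjusted p = 2.34e-14), IAA4 by 0.67 ± 0.04 (8.60e-15), IAA17 by 0.65 ± 0.06 (5.18e-11) and IAA1 by 0.42 ± 0.09 (0.000127). The value of IAA1 was 0.27 without pifq replicate 1 (edgeR adjusted p = 0.0289). IAA29 fell by 0.80 on the log2 scale, with an SE of 0.13 and an edgeR adjusted p of 2.08e-06. No member tested changed by 2-fold or more with a call, which 7.62% of all genes did. IAA19 was not called, at 0.28 ± 0.27 (edgeR adjusted p = 0.380), and its value was −0.41 without pifq;bzr1-1D replicate 1. IAA7 had −0.11 ± 0.04 (0.0284), a call lost with DESeq2 (0.0696) and in edgeR without pifq replicate 1 (0.0541) or pifq;bzr1-1D replicate 1 (0.392), in a range of adjusted p of 0.000207 to 0.392. Its value was −0.05 without pifq;bzr1-1D replicate 1 and −0.21 without pifq;bzr1-1D replicate 2. IAA2 had −0.05 ± 0.04 and was not called, except in edgeR without pifq replicate 2 (adjusted p = 0.0339, in a range of 0.0339 to 0.735). The median over the 9 genes was 0.42, or 0.35 without IAA6, against −0.01 over all genes.

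The loss of the PIFs in seedlings with active BZR1 was read from pifq;bzr1-1D against bzr1-1D. All 9 genes tested were called, 8 lower and IAA1 higher, against 31.6% of all genes called lower and 33.8% called higher. IAA6 had to differ here too, since it passed the filter only through bzr1-1D, and without it 7 of 8 were lower. IAA19 had a log2 fold change of −4.57 ± 0.13 (SE, n = 2 per genotype, edgeR adjusted p = 1.97e-25), IAA29 −2.22 ± 0.10 (3.48e-19) and IAA17 −2.04 ± 0.05 (6.91e-28). These were below the 5th percentile of all genes, −1.65. IAA3, IAA7, IAA2 and IAA4 had −0.93 ± 0.05, −0.87 ± 0.04, −0.70 ± 0.04 and −0.21 ± 0.04. The value of IAA4 was −0.13 without pifq;bzr1-1D replicate 2. IAA1 rose by 1.23 ± 0.10 (edgeR adjusted p = 4.77e-13), and its mean was 2.18 times that of bzr1-1D. The median over the 8 genes other than IAA6 was −0.90, against 0.02 over all genes.

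The combined line was also set against the wild type, which shares the Col-0 libraries again. Of the 9 genes tested 5 were lower and 2 higher, against 25.0% and 29.3% of all genes. The lower genes were IAA29 with a log2 fold change of −2.35 ± 0.10 (SE, n = 2 per genotype, edgeR adjusted p = 5.44e-20), IAA19 with −1.90 ± 0.19, IAA2 with −1.04 ± 0.04, IAA17 with −1.04 ± 0.05 and IAA7 with −0.83 ± 0.04. Fold changes use TMM factors and the CPM ranges do not. IAA3 was not called, at −0.06 ± 0.05 (edgeR adjusted p = 0.374). IAA4 was called higher at 0.16 ± 0.04 (0.00224) although its CPM ranges overlapped, and this call was lost with DESeq2 (0.0534) and in edgeR without pifq;bzr1-1D replicate 1 (0.608), in a range of adjusted p of 7.21e-05 to 0.608. IAA1 was called higher at 0.20 ± 0.08 (edgeR adjusted p = 0.0370) in a range of 0.0368 to 0.365. That call was lost under 10 of 14 alternatives, among them leaving out Col-0 replicate 1 (0.146), Col-0 replicate 2 (0.0739), pifq replicate 1 (0.0692), pifq replicate 2 (0.0689), pifq;bzr1-1D replicate 1 (0.233) or pifq;bzr1-1D replicate 2 (0.116). The median over the 9 genes was −0.83, or −0.93 without IAA6, against 0.03 over all genes.

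**Figure D3:**
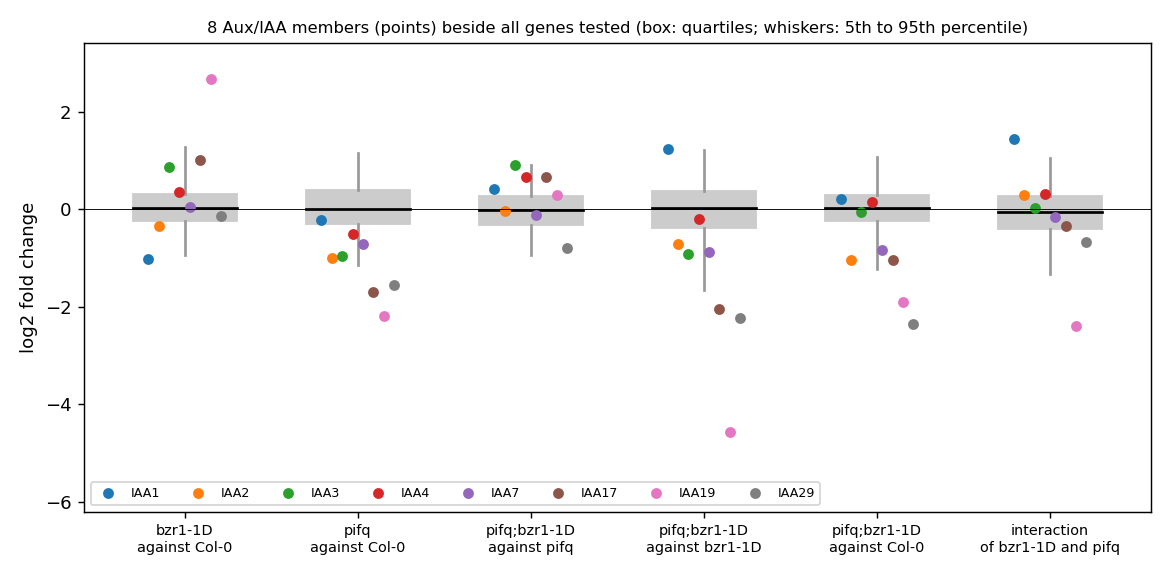
Log2 fold changes of the 8 tested genes other than IAA6 (points) in the 5 comparisons and the interaction, beside all 21221 genes tested (box at the quartiles, line at the median, whiskers from the 5th to the 95th percentile). All 8 points lie below 0 in pifq against Col-0, and in pifq;bzr1-1D against bzr1-1D all but IAA1 do.

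The interaction term compares the bzr1-1D effect without the PIFs with that in their presence. It was called for 7 of the 9 genes tested, 3 positive and 4 negative, against 48.8% of all genes, 21.9% positive and 26.9% negative. IAA19 had the largest difference, a log2 value of −2.39 ± 0.30 (SE, n = 2 per genotype, edgeR adjusted p = 4.05e-08), from an effect of 2.67 with the PIFs and 0.28 without. IAA1 had 1.45 ± 0.13 (edgeR adjusted p = 3.27e-11), and its bzr1-1D effect was −1.03 with the PIFs and 0.42 without them, with calls in opposite directions, the second of them 0.27 without pifq replicate 1. IAA29 had −0.67 ± 0.14 (0.000265) and IAA17 −0.35 ± 0.07 (0.000196), by the same edgeR test. IAA4 had 0.30 ± 0.06 (8.07e-05) and IAA2 0.29 ± 0.05 (2.14e-05). IAA7 had −0.16 ± 0.06 (edgeR adjusted p = 0.0229), a call lost with DESeq2 (0.111), with thinned counts (0.0547) and in edgeR without Col-0 replicate 1 (0.148), bzr1-1D replicate 1 (0.0921), pifq replicate 1 (0.0796) or pifq;bzr1-1D replicate 1 (0.330), in a range of adjusted p of 0.00113 to 0.330. For IAA3 the difference was 0.03 ± 0.08 and was not called (edgeR adjusted p = 0.782). The IAA6 term, with 0 to 3 summed counts in 3 genotypes, had an SE of 6.15 and says nothing on a difference.

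**Figure D4:**
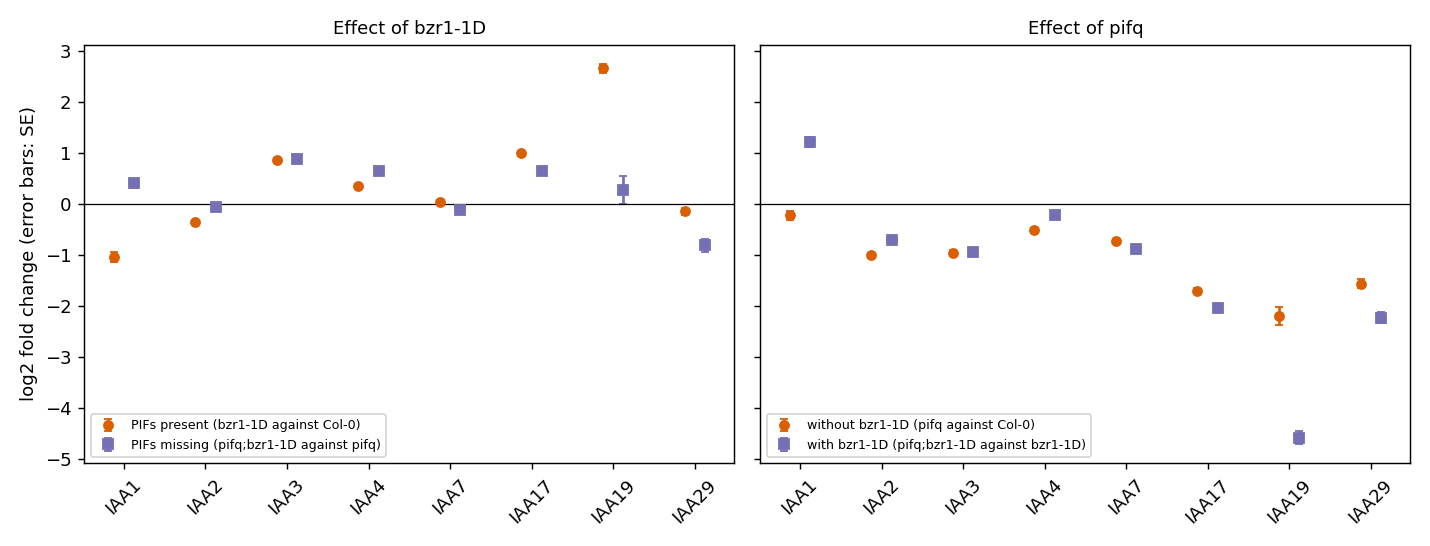
Log2 fold changes with SE (bars) of the 8 tested genes other than IAA6, for the bzr1-1D effect with and without the PIFs (left) and the pifq effect without and with bzr1-1D (right), from libraries of 2 per genotype. The left pair of points is far apart for IAA19 (2.67 and 0.28) and on opposite sides of 0 for IAA1 (−1.03 and 0.42), and nearly equal for IAA3 (0.87 and 0.90).

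Across the 8 libraries, most of the 9 tested genes varied alike and IAA1 varied against them. Of 36 pairs, 7 had a Pearson r of log2(CPM + 0.1) above 0.9 and 8 had an r below 0. All 8 negative pairs involved IAA1, down to −0.91 with IAA6 and −0.80 with IAA19. IAA6 had 0 to 2 counts in each library outside bzr1-1D. Its r values, among them 0.93 with IAA19, thus set bzr1-1D against the rest and depend on the added 0.1. The closest pairs were IAA7 with IAA29 (r = 0.98), IAA3 with IAA4 (0.97) and IAA17 with IAA19 (0.96). The libraries fall into 4 genotypes, so these values mostly describe how 4 means are spaced and are given with no p. Genes with a high r can still differ in the order of the genotypes, as IAA7 and IAA29 do.

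**Figure D5:**
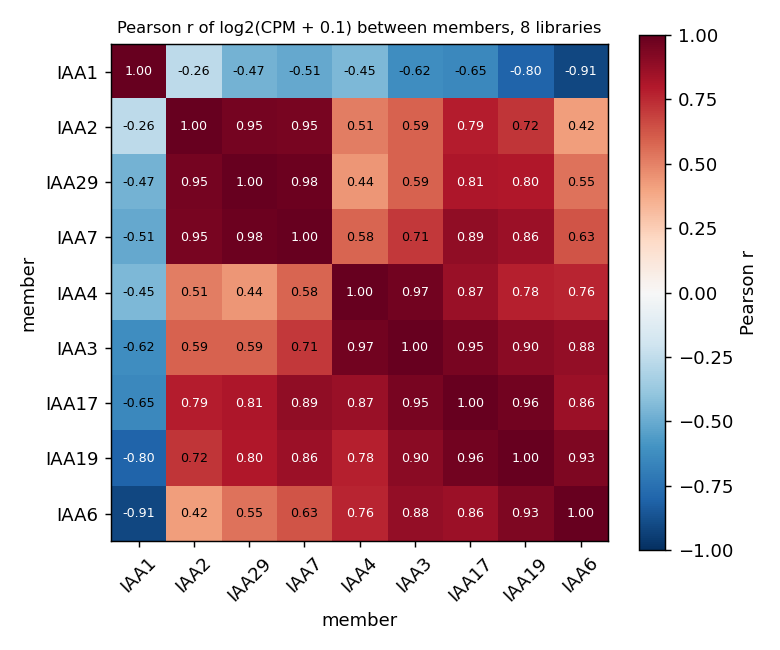
Pearson r of log2(CPM + 0.1) over 8 libraries between the 9 tested genes, in an order set so that like genes stand together. IAA2, IAA29 and IAA7 form a block with r of 0.95 to 0.98, and the row of IAA1 is negative throughout. The values of IAA6 rest on the bzr1-1D libraries, since it was barely detected elsewhere.

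Adjacent members did not always share a pattern. IAA3 and IAA17 are neighbours on chromosome 1, with no other gene of both the count files and TAIR10.1 between them, and had an r of 0.95. IAA2 and IAA7, likewise neighbours on chromosome 3, also had an r of 0.95, but IAA2 fell in bzr1-1D and IAA7 was not called. IAA1 is next to IAA14, another Aux/IAA repressor, on chromosome 4. IAA14 had 12.59 and 11.97 CPM in Col-0, against 14.9 and 15.2 in bzr1-1D, 5.82 and 5.68 CPM in pifq, and 10.5 and 10.7 CPM in pifq;bzr1-1D. It rose in bzr1-1D by a log2 fold change of 0.31 ± 0.08 (edgeR adjusted p = 0.00132), where IAA1 fell.

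Each member was set beside the other tested genes whose mean reached 5 CPM, 14670 in number, or 14671 for IAA6, which is itself below that level. The gene most like IAA19 over the 8 libraries was AT3G24450 (r = 0.997), followed by AT3G55420 (0.996), pPLAIIIbeta (0.996), AT3G26760 (0.995) and AT4G34660 (0.994). For IAA17 it was CSLC04, a member of the cellulose synthase-like family (r = 0.999), and for IAA29 COB, a wall-associated protein needed for oriented cell expansion (0.998). IAA2 was closest to RAX2, a MYB factor (0.999), IAA3 to RGF6, a gene for a peptide of the root growth factor family (0.997), and IAA7 to UBC9, a ubiquitin-conjugating enzyme (0.997). AT1G66760 was nearest to IAA1 (0.993), AT4G29950 to IAA4 (0.992) and AT5G11000 to IAA6 (0.998). The value for IAA6 rests on the bzr1-1D libraries, since the gene was barely detected elsewhere. With 4 genotype means, values near 1 are easy to reach among so many genes.

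Of the 19 other Aux/IAA genes, 16 were tested. In pifq against Col-0, 9 of the 16 fell and 2 rose, against 30.5% and 32.0% of all genes, with a median log2 fold change of −0.17, and IAA20, a member without the degron, fell by 0.75 on the log2 scale (edgeR adjusted p = 2.02e-15). IAA16 fell by 0.48. In bzr1-1D against Col-0, 6 rose and 4 fell (30.8% and 26.1% of all genes), and the smallest p values were those of IAA27 (−1.16 ± 0.06) and IAA26 (−0.55 ± 0.04), a pair known to bind phytochrome. In pifq;bzr1-1D against pifq, 8 rose and 3 fell (28.1% and 27.8% of all genes), with IAA26 at −0.69 ± 0.04 and IAA18 at 0.54 ± 0.05. The count that rose was 5 without pifq replicate 2. The interaction was called for 11 of the 16 (48.8% of all genes), with IAA18 at 0.78 ± 0.06 and IAA8 at −0.48 ± 0.06. The count of negative calls was 4, and 2 with DESeq2 and without Col-0 replicate 2, pifq replicate 1, pifq replicate 2 or pifq;bzr1-1D replicate 2. The count that rose in pifq was 1, not 2, with DESeq2 and without Col-0 replicate 2, pifq replicate 1 or pifq replicate 2. Whether the 10 genes differ from the rest of the family was not tested.

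Counts in the lists of 5 to 7 genes that follow stand against the same shares of all genes, 30.8% higher and 26.1% lower in bzr1-1D, 32.0% and 30.5% in pifq, 28.1% and 27.8% in pifq;bzr1-1D against pifq, and 48.8% for the interaction, and many are near them. Receptors, which take Aux/IAA proteins to degradation, changed by less than 2-fold. Of 6 TIR1/AFB genes, 4 fell and none rose in pifq, with AFB1 at −0.72 ± 0.05 and TIR1 at −0.37 ± 0.04, and the same count of 4 rose in pifq;bzr1-1D against pifq, with AFB1 at 0.58 ± 0.05 and TIR1 at 0.41 ± 0.04. In bzr1-1D against Col-0, TIR1 fell by 0.32 on the log2 scale, and 2 others were called higher, AFB2 at 0.12 ± 0.04 and AFB4, named after its values were seen, at 0.20 ± 0.08. Neither count was stable. The 2 higher calls were 0 with DESeq2, with fits of 2 genotypes and without pifq replicate 1 or pifq replicate 2, and 1 with thinned counts and without any 1 of the 6 other libraries. The 1 lower call was 2 with RLE factors, with fits of 2 genotypes and without Col-0 replicate 2 or any 1 of the 4 pifq and pifq;bzr1-1D libraries. The interaction was positive for 4 of the 6, with TIR1 at 0.73 ± 0.05 and AFB1 at 0.57 ± 0.06. Among the 5 activating ARFs, the partners that Aux/IAA proteins restrain, ARF7 (0.36 ± 0.04) and ARF5 (0.30 ± 0.05) rose in bzr1-1D with 1 other, and 1 fell. In pifq 2 fell, ARF6 by −0.37 ± 0.04 and ARF7 by −0.15 ± 0.05, and in pifq;bzr1-1D against pifq 2 rose and 2 fell, ARF8 by −0.30 ± 0.06 and ARF6 by −0.23 ± 0.05. The interaction was negative for 3 of the 5, with ARF8 at −0.46 ± 0.07 and ARF5 at −0.35 ± 0.08, and 1 was positive without pifq replicate 2. The 2 ARFs that fell in pifq were 1 without Col-0 replicate 1. The 2 that rose in pifq;bzr1-1D were 0 without pifq replicate 1, and 1 with DESeq2, with thinned counts and without pifq replicate 2 or pifq;bzr1-1D replicate 1.

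Of the 5 corepressor genes, TPL fell (−0.51 ± 0.04) and 3 rose in bzr1-1D, TPR3 by 0.51 ± 0.07. In pifq 1 rose, TPR3 (0.59 ± 0.07), and 2 fell, TPR1 by −0.29 ± 0.04. In pifq;bzr1-1D against pifq 3 rose, TPR1 by 0.20 ± 0.04, and TPR3 fell (−0.58 ± 0.08). Their interaction values were led by TPL (0.59 ± 0.05) and TPR3 (−1.09 ± 0.11), with 2 positive and 2 negative calls, the latter 1 with DESeq2 and without Col-0 replicate 2. The 3 corepressor genes that rose in pifq;bzr1-1D were 1 without pifq replicate 2, pifq;bzr1-1D replicate 1 or pifq;bzr1-1D replicate 2. Among 7 GH3 genes, whose products conjugate hormones and most of which are auxin-induced, 3 rose and 2 fell in bzr1-1D, with GH3.2 at 1.83 ± 0.07 and GH3.17 at 1.07 ± 0.05. In pifq 2 rose and 2 fell, GH3.5 by −1.49 ± 0.04, while GH3.6 rose by 0.69 ± 0.05. In pifq;bzr1-1D against pifq 2 rose, GH3.2 by 1.53 ± 0.08, and 2 fell, GH3.3 by −0.88 ± 0.06. The interaction was called for 3 of the 7, all negative, with GH3.17 at −1.19 ± 0.08 and GH3.6 at −0.47 ± 0.07. The 2 GH3 genes that fell in bzr1-1D were 1 with DESeq2 and without Col-0 replicate 1 or bzr1-1D replicate 2, and the 2 that fell in pifq;bzr1-1D were 4 without pifq;bzr1-1D replicate 2.

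Markers of other tissues moved with the genotypes too. Summed over 6 root and root hair genes, the level was 12.3 and 13.0 CPM in Col-0, 7.22 and 6.61 CPM in pifq, 0.469 and 0.659 CPM in bzr1-1D, and 0.373 and 0.621 CPM in pifq;bzr1-1D. All 6 fell in bzr1-1D against Col-0 and in pifq;bzr1-1D against pifq, where 26.1% and 27.8% of all genes were called lower. EXPA18 was at 0 counts in both bzr1-1D libraries, and COBL9 was at 0 counts in both pifq;bzr1-1D libraries. Several of these genes rest on few reads, such as RHD6 with 27 and 12 counts in Col-0 and 5 and 4 in bzr1-1D. The 4 stomatal lineage genes all rose in pifq, against 32.0% of all genes called higher. Their sum went from 14.0 and 15.1 CPM in Col-0 to 27.7 and 28.97 CPM. In bzr1-1D it was 17.3 and 16.3 CPM, and in pifq;bzr1-1D 29.3 and 29.8 CPM. In bzr1-1D against Col-0, FAMA was called lower (−0.35 ± 0.11), TMM and SPCH higher, and MUTE was not called. Of the 4 seed reserve genes, 3 fell in bzr1-1D, against 26.1% of all genes called lower. The sum of all 4 was 1.37 and 1.56 CPM there, against 175 and 170 CPM in Col-0. It was 39.5 and 40.6 CPM in pifq and 59.7 and 57.4 CPM in pifq;bzr1-1D. In pifq against Col-0, CRA1, CRU3 and OLEO1 were called lower, and SESA1 higher, from 1 and 1 to 5 and 4 counts. In pifq;bzr1-1D against pifq, CRA1 was called lower (−0.55 ± 0.07), and CRU3, OLEO1 and SESA1 higher. The part of these tissues in the Aux/IAA differences was not tested.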

How the data were processed

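RNA-seq libraries of 4 genotypes (2 each) were used, grouped by genotype and replicate number in their titles. The authors deposited raw counts, whole numbers of reads for each gene. Per the submitters' processing notes, TopHat, HTSeq and TAIR9 were used. The sources used here do not state strand or multiple-hit settings, so near-identical or overlapping genes are uncertain. Reads assigned to no gene (2.68% to 4.27%) or ambiguous (1.95% to 2.08%) were left out of totals and tests.

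The test on counts was the quasi-likelihood F test of edgeR 4.0.16 in R 4.3.3, with TMM factors of 0.942 to 1.04 and filterByExpr, in 1 fit of all 8 libraries with 4 residual degrees of freedom. P-values were Benjamini-Hochberg adjusted over 21221 genes and called under 0.05. SE is the absolute log2 fold change over the root of F. CPM uses total gene counts, and fold changes use TMM factors, which scale CPM of the members by 0.959 to 1.06. Alternatives were RLE factors, no filter, DESeq2 1.42.0, fits of 2 genotypes, a replicate block, thinned counts and leaving out each library. The fit was tested on simulated data with changes in bzr1-1D only and the same spread in every library. The larger replicate noise of pifq;bzr1-1D was not simulated.

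Members and lists were chosen with earlier results of these data known. Named genes were all members, the mutated genes, up to 2 of each other list with the smallest p in 4 contrasts, and the genes most correlated with each member, 1 each and 5 for IAA19. Gene names and order came from TAIR10.1. No protein or promoter sequence of the counts' build was used here, so the planned motif and protein features were not analysed.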

Additional observations from a re-analysis of the deposited data

Results flagged for a closer look

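For 7 of the 9 Aux/IAA genes tested the effect of bzr1-1D differed with and without the PIFs by the interaction term of the edgeR fit, taken as the effect in the absence of the PIFs less that in their presence. It was −2.39 on the log2 scale for IAA19, 1.45 for IAA1, −0.67 for IAA29, −0.35 for IAA17, 0.30 for IAA4, 0.29 for IAA2 and −0.16 for IAA7. The call for IAA7 was lost in 6 of 13 alternatives, with adjusted p up to 0.330, among them DESeq2 (0.111), thinned counts and edgeR without Col-0 replicate 1, bzr1-1D replicate 1, pifq replicate 1 or pifq;bzr1-1D replicate 1, and its value was −0.08 without the last. For IAA1 the CPM of both bzr1-1D libraries lay below both Col-0 libraries, while both pifq;bzr1-1D libraries lay above both pifq libraries. Over all genes tested, 48.8% had such a difference.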

How the results depend on the processing

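Of 54 log2 fold changes (9 genes in 5 comparisons and the interaction), 44 kept their direction and their side of the threshold under every alternative run, and 708 of 743 alternative values did. The members called higher in pifq;bzr1-1D against Col-0, 2 in the main fit, were 1 with RLE factors, 1 with fits of 2 genotypes, 1 with thinned counts and 0 with DESeq2, and 0 to 2 when a library was left out. Those called lower in pifq;bzr1-1D against pifq, 2 in the main fit, were 1 with DESeq2 and 1 to 3 when a library was left out. Direction turned only in values that were not called. The IAA3 interaction was −0.0196 with thinned counts, and −0.0406 to 0.0832 when a library was left out, below 0 without Col-0 replicate 1, bzr1-1D replicate 2 or pifq;bzr1-1D replicate 1. IAA19 in pifq;bzr1-1D against pifq ranged from −0.41 (without pifq;bzr1-1D replicate 1) to 0.53, and IAA6 in pifq;bzr1-1D against Col-0 from −3.52 to 0.39 (without pifq;bzr1-1D replicate 2). IAA6 gave no value in 1 case with 0 counts on both sides. The causes were not tested. With DESeq2, the genes called higher in pifq;bzr1-1D against Col-0 were 4139 against 6212, and those with a negative interaction 3537 against 5717. Small counts of the other auxin lists moved by over 1.5 times in 75 of 830 cases. The order of the genotype means was the same with TMM-scaled CPM for 10 of 10 genes. Overlap of ranges was read from plain CPM only. For close genotypes it can change with TMM scaling, as for pifq and pifq;bzr1-1D in IAA2, and Col-0 and pifq;bzr1-1D in IAA3 and IAA4. A left-out library leaves its genotype with 1 library, assumed to vary like the others. Replicate numbers did not pair the libraries (r of deviations −0.04 to 0.05 over 12101 genes), and the replicate block changed none of the 54 calls, with 5 higher and 2 lower in bzr1-1D and 8 lower in pifq. Promoter windows of another length were not run. Depth limits IAA5 and IAA6 in all genotypes but bzr1-1D for IAA6, and IAA19 without the PIFs.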
